A study of Mus musculus with 6 samples.

Results

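The 7 genes described here encode subunits of the GABA-A receptor, the chloride channel opened by the inhibitory transmitter GABA. They are Gabra2, Gabra3, Gabra4, Gabra5, Gabrb1, Gabrb2 and Gabrd, the genes of the deposited table whose Ensembl identifiers carry these symbols in the GENCODE M21 annotation, and they make up 7 of 46078 genes in the table. A further 9 subunit genes were used for comparison. Striatal RNA was sequenced from 3 wild-type (WT) mice and 3 mice carrying an EGFP-Shank3 transgene (TG), all male, 12 weeks old and on the C57BL/6J strain, with 1 library per mouse. The transgene adds Shank3, a scaffold protein of the excitatory postsynapse, to the endogenous gene that both genotypes carry. The promoter that drives it is not given in the sources used here. The question put to the data is whether the striatal makeup of GABA-A receptor subunits differs between these genotypes.

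GABA-A receptors are assembled from alpha and beta subunits together with a gamma or a delta subunit. The alpha subunit shapes the affinity for GABA and the response to benzodiazepines. Receptors with gamma subunits cluster at synapses, whereas receptors that pair alpha4 with delta lie outside the synapse and carry tonic inhibition, as receptors with alpha5 often do. The output neurons of the striatum, the medium spiny neurons, release GABA themselves and receive it from each other and from local interneurons. C57BL/6J mice are known to carry an intronic deletion in Gabra2 that lowers its expression, and this background was shared by all 6 mice.

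The listed subunits differ at sites where drugs bind, and the coding sequence shows this directly. For each gene the transcript with the longest coding sequence was used, and residues are numbered in the precursor that it encodes. This precursor has 533 residues in Gabra3 and 578 in Gabra4. The 4 alpha stretches below were read from these GENCODE M21 transcripts (GRCm38) in the direction of the gene. They hold in capitals the codon of the residue that decides benzodiazepine binding. It is a histidine codon in Gabra2 (residue 129 of the encoded precursor, exon 5, chr5:71014493-71014519, minus strand), in Gabra3 (residue 195, exon 5, chrX:72501156-72501182, minus strand) and in Gabra5 (residue 136, exon 5, chr7:57488879-57488905, minus strand). In Gabra4 it is an arginine codon (residue 161, exon 4, chr5:71641140-71641166, minus strand), and receptors with this subunit are known not to respond to classical benzodiazepines.
Gabra2: gataccttctttCACaatgggaaaaag
Gabra3: gataccttcttcCACaatggtaaaaaa
Gabra5: gacacgttcttcCACaacggcaagaag
Gabra4: gatactttcttcAGGaatggaaagaaa

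The 2 beta stretches hold in capitals the codon of the membrane residue on which the action of the anaesthetic etomidate depends. It is an asparagine codon in Gabrb2 (residue 289, exon 8, chr11:42597561-42597587, plus strand), the sensitive form, and a serine codon in Gabrb1 (residue 290, exon 8, chr5:72121969-72121995, plus strand), the form with low sensitivity.
Gabrb2: atgaccacaatcAACacccacctccgg
Gabrb1: atgaccaccatcAGCactcacctcagg

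Several of these genes lie in clusters. Gabra2 (ENSMUSG00000000560, 70957597 to 71095849), Gabra4 (ENSMUSG00000029211, 71569749 to 71658308) and Gabrb1 (ENSMUSG00000029212, 71658113 to 72149037) are neighbours on chromosome 5, Gabra5 (ENSMUSG00000055078, 57407672 to 57510059) lies on chromosome 7, Gabrb2 (ENSMUSG00000007653, 42419757 to 42629028) on chromosome 11, Gabra3 (ENSMUSG00000031343, 72432681 to 72656848) on the X chromosome and Gabrd (ENSMUSG00000029054, 155384980 to 155398112) on chromosome 4. The library kit does not mark the strand. Gabra4 and Gabrb1 overlap head to head and share 46 exon bases, of 6083 in Gabra4 and 13838 in Gabrb1. Gabra5 shares 148 of its 2974 exon bases with the opposite-strand gene Gm9962, so a small part of the reads of these genes cannot be assigned with certainty.

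The libraries held between 27689589 and 36647626 counts on genes. Shank3 was between 26044 and 29891 normalized read counts (gene counts divided by the size factor of the library) in the 3 TG mice and between 12918 and 13865 in the 3 WT mice, so each library carried the genotype of its label. Of the spiny neuron markers, 12 of 12 were present, with Ppp1r1b between 21063 and 28763. Of the cortical excitatory neuron markers, 10 of 10 were present as well, with Slc17a7, the vesicular glutamate transporter of cortical neurons, between 20237 and 29848, so the libraries held RNA of cortical type beside that of the striatum. The choroid plexus marker Ttr stood at 13701, 1122 and 204 in TG replicates 1, 2 and 3, against a range of 119.7 to 432 in the WT mice, so that TG replicates 1 and 2 both lay above the WT range. In TG replicate 1 the spiny neuron markers summed to 157257, the lowest of the 6 libraries. Since these are bulk samples, fewer cells of a type and less RNA per cell cannot be told apart.

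The subunits were well expressed in all 6 libraries. Their mean normalized read counts lay above those of between 67.2% and 92.5% of the 17605 genes tested, those averaging at least 10. No subunit separated the genotypes, as the plot of normalized read counts shows. In Gabra4, the values were 4214, 5576 and 5110.2 in TG replicates 1, 2 and 3 and 4877, 4794 and 4941 in WT replicates 1, 2 and 3. The WT mice lay close together and inside the wide range of the TG mice. In Gabrd, the delta subunit that assembles with alpha4, the TG values were 3027, 3579 and 3463 and the WT values 3574, 3428 and 3800.3. TG replicate 1 was the lowest library for Gabra4 as well as for Gabrd.

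**Figure D1:**
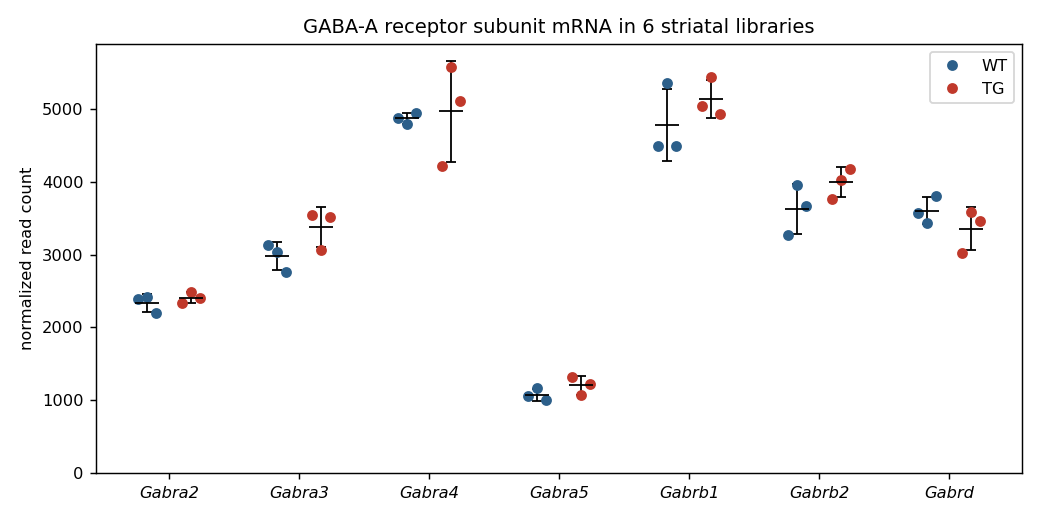
Normalized read count (vertical axis, linear, from 0) of each of the 7 subunits in the 3 WT (blue) and 3 TG (red) libraries, with replicates 1 to 3 from left to right, the mean as a horizontal line and the SD as a bar. The red and blue points overlap in each of the 7 genes, and the TG points of Gabra4 spread from 4214 to 5576 around WT points between 4794 and 4941.

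In Gabra3, a benzodiazepine-sensitive subunit abundant in the cortex and brainstem, the values were 3544, 3065 and 3521 in TG replicates 1, 2 and 3 and 3137, 3034 and 2764 in WT replicates 1, 2 and 3. TG replicates 1 and 3 lay above each WT mouse, and TG replicate 2 lay within the WT range. In Gabra5 the TG values were 1319, 1064 and 1222 and the WT values 1063, 1159.7 and 997, with the same placing of the TG mice. In Gabra2, an alpha subunit of striatal synapses, the TG values were 2331, 2486 and 2406 and the WT values 2394, 2423 and 2195. This was the gene with the least spread, with an SD of 0.06 on the log2 scale between mice of a genotype, against a median of 0.11 over all genes tested.

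Of the beta subunits, which contribute to the GABA binding site with the alpha subunit, Gabrb1 had 5040.2, 5432 and 4931 normalized read counts in the TG mice, against 4497, 5350.5 and 4488 in the WT mice. Gabrb2 had 3769, 4024 and 4179 in the TG mice, against 3272, 3958 and 3661 in the WT mice. In both genes the 3 TG mice lay above the WT mean, and WT replicate 2 lay within their range.

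Differences between the genotypes were tested with limma on log2(normalized read count + 1) over all genes tested, with Benjamini-Hochberg adjustment. At an adjusted P value under 0.05, 0 of the 7 subunits were called, against 0.00568% of the genes tested, which is Shank3 alone (log2 fold change 1.05, standard error 0.06, adjusted P = 7.04e-05 by limma). On recovered read counts, edgeR, DESeq2 and limma-voom each called 0 subunits as well. At an unadjusted P value under 0.05, 1 subunit of 7 passed, Gabra3, against 4.31% of the genes tested. That count changed when single mice were left out. It was 0 without TG replicate 3 or WT replicate 3, and 4 without WT replicate 2. It was 2 without TG replicate 1 (Gabra4 and Gabrb2) or TG replicate 2 (Gabra3 and Gabra5). The number over all 17605 genes tested changed as well, from 758 to 1327 without TG replicate 1 and 1028 without TG replicate 2. It was 502 without TG replicate 3, 656 without WT replicate 2 and 588 without WT replicate 3. The values of TG and WT mice were free of overlap in 0 of the 7 subunits, against 10.1% of the genes tested. The log2 fold change was above 0 in 6 of the 7 subunits, against 49.2% of the genes tested, and the median was 0.11, against 0.00 over all genes tested. Genes measured in the same mice are not independent, so these counts are a description.

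Over all 6 libraries the log2 fold change farthest from 0 was that of Gabra3, which had 3377 ± 270.0 normalized read counts in TG mice and 2978 ± 193 in WT mice (SD, n = 3 each). The log2 fold change was 0.18 (standard error 0.07), with a 95% interval from 0.03 to 0.33, an unadjusted P of 0.0240 by limma and an adjusted P of 0.971. Over the libraries left out in turn it ranged from 0.13 (without WT replicate 3) to 0.25 (without TG replicate 2), and it was not called in any of them. Without TG replicate 1 or WT replicate 3, the value of Gabrb2 was above that of Gabra3 (0.18 and 0.15), and without WT replicate 2 those of Gabra5 (0.22) and Gabrb2 (0.20) were. Gabra5 had 1202 ± 128 in TG mice and 1073 ± 81.6 in WT mice (SD, n = 3 each), with a log2 fold change of 0.16 with a 95% interval from -0.03 to 0.35. Gabrb2 had 3991 ± 207 in TG mice and 3630.3 ± 344 in WT mice, with a log2 fold change of 0.14 with a 95% interval from -0.01 to 0.29. Gabrb1 had 5134 ± 264 in TG mice and 4778 ± 496 in WT mice, with a log2 fold change of 0.11 with a 95% interval from -0.05 to 0.26.

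Gabra2 had 2408 ± 77.5 normalized read counts in TG mice and 2338 ± 124 in WT mice (SD, n = 3 each), with a log2 fold change of 0.04 with a 95% interval from -0.08 to 0.16. Gabra4 had 4967 ± 692 in TG mice and 4871 ± 73.7 in WT mice, with a log2 fold change of 0.02 with a 95% interval from -0.17 to 0.21. Gabrd had 3356 ± 291 in TG mice and 3601 ± 188 in WT mice, with a log2 fold change of -0.10 with a 95% interval from -0.25 to 0.04, and it was the subunit with a value below 0. The adjusted P by limma was 0.991 for Gabra4 and 0.971 for each of the other 6 subunits. A two-sided exact permutation test of 3 mice against 3, whose smallest possible P is 0.1, gave 0.2 for Gabra3, Gabra5 and Gabrb2, 0.3 for Gabrb1, 0.5 for Gabrd, 0.6 for Gabra2 and 0.9 for Gabra4. Taken as fold changes, the 95% intervals of the 7 subunits reached from 0.839 in Gabrd to 1.27 in Gabra5, which is the precision that 3 mice per genotype gave.

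**Figure D2:**
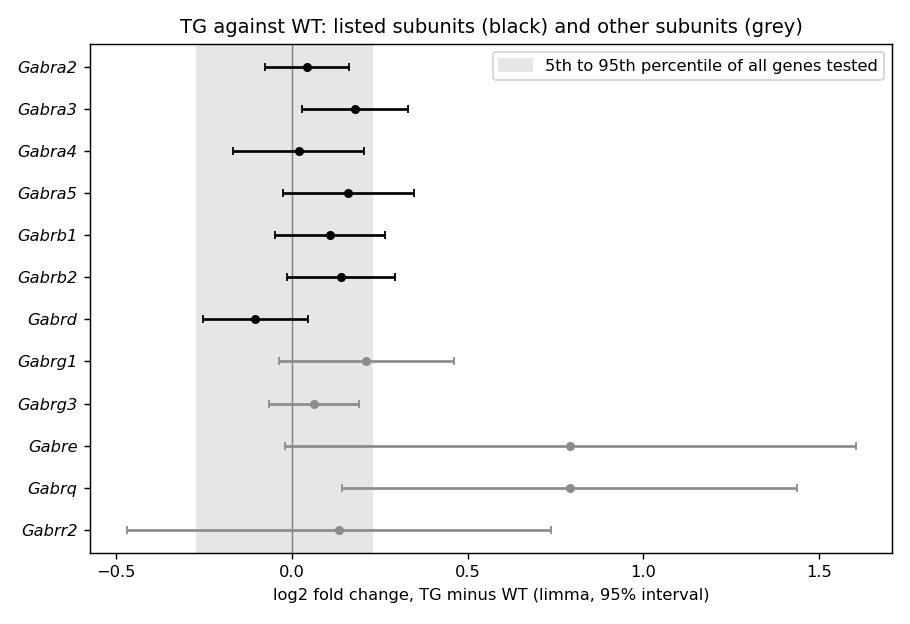
Log2 fold change between TG and WT mice (horizontal axis) with its 95% interval from limma, for the 7 listed subunits in black and the 5 other subunits tested in grey. The grey band runs from -0.27 to 0.23, the 5th to the 95th percentile of all genes tested. The black points lie between -0.10 and 0.18, and the wide intervals of Gabre, Gabrq and Gabrr2 belong to genes with few reads.

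To compare subunits with each other, normalized read counts were divided by the length of each gene's merged exons in kb. On this scale, over the 6 libraries, Gabrd was the highest of the 7 with a level of 1209.9 ± 89.3 (SD), between 1053 and 1322. Gabra3 (809.7 ± 77.2) and Gabra4 (809 ± 72.9) followed and did not differ beyond their spread. Gabrb2 (599 ± 50.6) came below both without overlap. Gabra5 (383 ± 40.1) and Gabrb1 (358 ± 29.3) overlapped, and Gabra2 (311 ± 13.1) was the lowest, just reaching into the range of Gabrb1.

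The order depended on the length used. The annotated exons of Gabrb1 span 13.8 kb, of which 1.42 kb are coding. Divided by coding length, Gabrb1 moved from the 6th place to the 1st (3485 per coding kb) and Gabra3 from the 2nd to the 5th (1987). Gabra4 (2837), Gabrd (2582), and Gabrb2 (2481) each overlapped with the next in order, and Gabra5 (819.0) was the lowest, with no library as high as the lowest one of Gabra2. A comparison of the same subunit between mice does not depend on this length.

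The share of each subunit in the summed level of the 7 was taken within each library, which removes the size factors. Per kb of merged exons, Gabrd took 24.2%, 26.8% and 25.7% in TG replicates 1, 2 and 3 and 28.5%, 26.7% and 30.3% in WT replicates 1, 2 and 3. TG replicate 2 lay just above WT replicate 2, and the other TG mice lay below the WT range. The mean was 25.6% ± 1.30 in TG mice and 28.5% ± 1.82 in WT mice (SD, n = 3 each; two-sided exact permutation test, P = 0.2, adjusted over the 7 shares P = 0.7). The share of Gabra3 was 18.9% ± 1.99 in TG mice and 17.3% ± 1.11 in WT mice (exact permutation test, P = 0.3). That of Gabra4 was 17.9% ± 1.90 against 18.2% ± 0.522, and that of Gabra2 was 6.91% ± 0.159 against 6.96% ± 0.326 (exact permutation test, P = 0.8 for each). The groups overlapped in 7 of 7 shares. The difference of the Gabra4 share was 0.605 percentage points without TG replicate 1 and -1.30 without TG replicate 2, and that of the Gabra3 share was 0.713 and 2.69 without the same mice. The small difference of the Gabra2 share also changed sign, from -0.236 without WT replicate 3 to 0.0685 without WT replicate 1. Without the length correction, the share of Gabrd was 13.7% ± 0.614 in TG mice and 15.5% ± 1.23 in WT mice. These values did not overlap (exact permutation test, P = 0.1, the smallest that 3 mice against 3 allow). They were only just apart, with TG replicate 2 at 14.186% and WT replicate 2 at 14.195%.

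**Figure D3:**
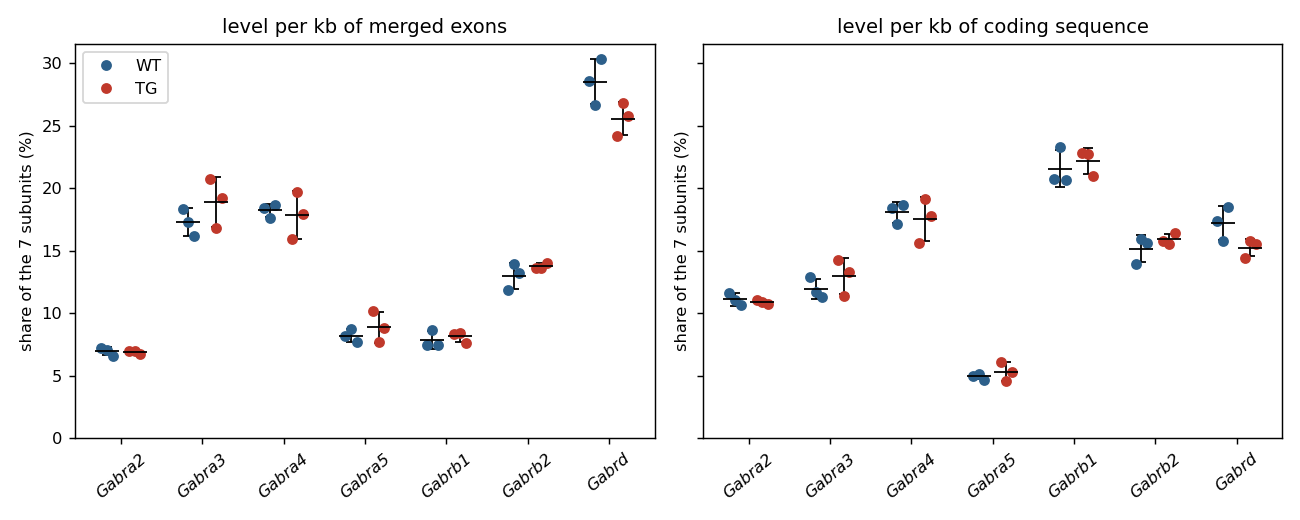
Share of each subunit in the summed level of the 7 (vertical axis, percent, from 0), with levels per kb of merged exons on the left and per kb of coding sequence on the right, for WT (blue) and TG (red) libraries with the mean and SD. Gabrd takes 24.2% to 30.3% on the left, where it is the highest, and Gabrb1 is the highest on the right, while TG and WT points overlap in each gene of both panels.

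Grouped by the codons shown above, Gabra4 with its arginine codon took 34.1% ± 4.47 of the summed level of the 4 listed alpha subunits in TG mice and 36.0% ± 1.73 in WT mice per kb of merged exons (SD, n = 3 each; two-sided exact permutation test, P = 0.5). By library the share was 29.5%, 38.5% and 34.1% in TG replicates 1, 2 and 3, so that the lowest and the highest value of the 6 mice both came from TG mice. Gabrb2 with its asparagine codon took 62.8% ± 1.74 of the 2 listed beta subunits in TG mice and 62.3% ± 1.45 in WT mice (exact permutation test, P = 0.5). Per kb of coding sequence this share was 41.9% and 41.3%, below that of Gabrb1.

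Of 6 subunit ratios compared between the genotypes, 0 were free of overlap. The log2 ratio of Gabrd to Gabra4, the delta receptor pair, was -0.48, -0.64 and -0.56 in TG replicates 1, 2 and 3 and -0.45, -0.48 and -0.38 in WT replicates 1, 2 and 3. The TG mean was lower by a difference of -0.12, with a 95% interval from -0.28 to 0.03 (two-sided exact permutation test, P = 0.2, adjusted over the 6 ratios P = 0.75). It was the steadiest of the 6, with a pooled SD of 0.07 between mice of a genotype. The ratio of Gabrb2 to Gabrb1 had a pooled SD of 0.10 and a difference of 0.03, with a 95% interval from -0.19 to 0.26. The ratio of Gabra5 to Gabra4 was the most variable, since it ran from -2.39 in TG replicate 2 to -1.68 in TG replicate 1, and its difference of 0.14 had a 95% interval from -0.47 to 0.75. This difference was -0.04 without TG replicate 1 and 0.31 without TG replicate 2, so its sign rested on 1 mouse. Gabra3 to Gabra2 differed by 0.14 (95% interval -0.13 to 0.40), Gabra2 to Gabra4 by 0.03 (-0.28 to 0.33) and Gabrd to Gabra5 by -0.26 (-0.79 to 0.27). The sign of the difference also turned for Gabra2 to Gabra4 (-0.07 without TG replicate 1, -0.03 without WT replicate 3) and for Gabrb2 to Gabrb1 (-0.03 without TG replicate 3).

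The subunits also varied between mice of the same genotype. After each gene was centred on its mean of the 6 libraries, the most alike subunits were Gabra3 and Gabra5, with a root mean square difference of 0.06 on the log2 scale, and the least alike were Gabra5 and Gabrd, with 0.23. Gabra4 and Gabrd differed by 0.08. In TG replicate 1, Gabra4 was at -0.21 and Gabrd at -0.25 relative to the WT mean on the log2 scale, whereas Gabra3 was at 0.25 and Gabra5 at 0.30. In TG replicate 2, Gabra4 was at 0.20, Gabra3 at 0.04 and Gabra5 at -0.01.

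Cell type markers differed between the same libraries. Relative to the WT mean, the median spiny neuron marker stood at -0.35, 0.14 and -0.14 in TG replicates 1, 2 and 3. In WT mice it stood between -0.07 and 0.12. Of the 12 spiny neuron markers, 10 had a log2 fold change below 0 and 2 had one above 0 (median -0.14). The median cortical excitatory marker stood at 0.11, -0.22 and 0.21 in the 3 TG mice and between -0.05 and 0.04 in WT mice. The summed level of the cortical list was 71551 in TG replicate 2, the lowest of the 6 libraries, and between 81256 and 89300.0 in the others. The median thalamic marker stood at 0.14, 0.03 and -0.12 in the 3 TG mice and between -0.05 and 0.09 in WT mice. Single thalamic markers varied more. TG replicate 1 was the highest library for Zic1, Prkcd, Calb2, Lef1 and Slc17a6, and the lowest for Synpo2 and Rora. In Zic1 it stood at 1041 normalized read counts, against 365 to 470 in the other libraries. The median choroid plexus marker was at 2.99, 1.06 and -0.25 in the 3 TG mice, against -0.07 to 0.08 in the WT mice, and 11 of the 11 markers tested had a log2 fold change above 0 (median 1.30). The median microglia marker was at -0.13, -0.05 and -0.11 in the 3 TG mice, against -0.05 to 0.02 in the WT mice, and 8 of 8 had a log2 fold change below 0 (median -0.11). Of the choroid plexus and the microglia list, 3 genes each had an unadjusted P value under 0.05 by limma. In the cortical list this held for 1 gene, lower in TG mice, and in the spiny neuron and thalamic lists for 0. Over all genes tested, 4.31% had such a P value and 49.2% had a log2 fold change above 0. In each of these lists, 0 genes were called by limma. The part of these markers in the values of the subunits was not tested. Without TG replicate 1, the log2 fold change was 0.13 in Gabra4 and -0.03 in Gabrd, and neither was called (adjusted P by limma of 0.658 in Gabra4).

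**Figure D4:**
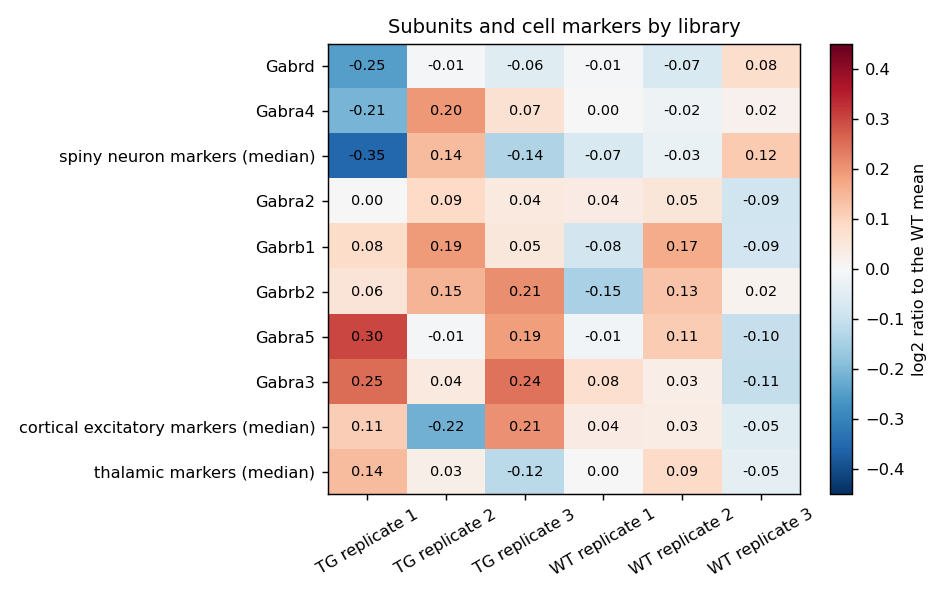
Log2 ratio to the WT mean (colour and printed value) for the 7 subunits and for the median gene of 3 marker lists (rows) in the 6 libraries (columns). In TG replicate 1, Gabrd (-0.25), Gabra4 (-0.21) and the spiny neuron markers (-0.35) are low while Gabra3 (0.25) and Gabra5 (0.30) are high.

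Among genes that are not subunits on the list and have a mean of at least 100, those with the most similar values over the 6 libraries were Camk4 and Gm14698 for Gabra4 (root mean square differences of 0.013 and 0.015 on the log2 scale, where the spread of Gabra4 itself was 0.12), Lrtm2 and Gpr146 for Gabrd (0.013 and 0.020), Accs and Resf1 for Gabra2 (0.013 and 0.016), Fgf12 and Napb for Gabra3 (0.025 and 0.028), and Ifit2 and Epha5 for Gabra5 (0.023 and 0.033). For the beta subunits they were Lnpep and Dhx29 for Gabrb1 and Zfp874b and Htr2a for Gabrb2, at 0.029 to 0.034. These were picked from 12832 genes on 6 libraries.

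Of the 9 subunit genes used for comparison, 5 had a mean of at least 10 and were tested, and limma called 0 of them, as did edgeR and DESeq2. The log2 fold change was above 0 in 5 of 5, against 49.2% of all genes tested, with a median of 0.21. At an unadjusted P value under 0.05 by limma, 1 of them passed, against 4.31% of all genes tested. This was Gabrq, the theta subunit, which had 78.9, 142 and 56.5 normalized read counts in the TG mice, against 44.6, 61.7 and 43.2 in the WT mice. TG replicate 3 lay within the WT range and TG replicate 2 lay farthest above it, and the log2 fold change was 0.79 with a 95% interval from 0.14 to 1.44 and an adjusted P of 0.971 by limma. The log2 fold changes of the gamma subunits Gabrg1 (0.21) and Gabrg3 (0.06), of the epsilon subunit Gabre (0.79) and of the rho subunit Gabrr2 (0.13) had 95% intervals that included 0.

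Genes that make, move and anchor the receptor and its transmitter formed 4 further lists, in which limma called 0 genes, with 0 at an unadjusted P value under 0.05 and 0 called by edgeR or DESeq2. Of 21 genes of receptor assembly and anchoring, 10 had a log2 fold change above 0, against 49.2% of the genes tested. The values did not overlap in 4, 3 higher and 1 lower, a share to be read against the 10.1% of all genes. The smallest P values belonged to Insyn1, an inhibitory synapse protein, at a log2 fold change of -0.11 (standard error 0.05), to Nsf, a membrane fusion factor, with 0.10 (standard error 0.05), and to Hap1, a trafficking adaptor, with 0.23 (standard error 0.14). Of 9 genes of GABA synthesis and transport, Gad1 (0.11, standard error 0.06) and Gad2 (0.13, standard error 0.08), the enzymes that make GABA, and the catabolic enzyme Aldh5a1 (0.07, standard error 0.05) had the smallest P values. The log2 fold changes of the chloride transporters that set the driving force of the channel, Slc12a5 (-0.03) and Slc12a2 (0.00), had 95% intervals that included 0. Of 5 genes of the GABA-B receptor, the metabotropic receptor for GABA, 4 had a log2 fold change below 0, against 8936 of the 17605 genes tested. The smallest P values there belonged to its auxiliary subunits Kctd8 (-0.14, standard error 0.14), Kctd12 (-0.08, standard error 0.09) and Kctd16 (-0.09, standard error 0.15).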

How the data were processed

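Per the labels (the submitters' processing notes) and the study's methods, the authors trimmed the reads (Trimmomatic 0.35), aligned them to GRCm38 (TopHat2 2.1.0), counted them per gene (HTSeq) and divided the counts by DESeq2 size factors. The deposited values are this signal, a normalized read count per gene and library. The strand setting and annotation release of the counting are not given in the sources used here. Dividing each library by its smallest value above 0 gave whole reads for 100.0% of values (within 0.01 reads). Symbols, lengths and positions come from GENCODE M21, which named 45143 of 46078 genes. Coding lengths are those of the transcript with the longest coding sequence of each gene. The main test was limma-trend (limma 3.58.1) on log2(value + 1), run on the 17605 genes averaging at least 10 and adjusted by Benjamini-Hochberg. Alternatives were edgeR 4.0.16, DESeq2 1.42.0 and limma-voom on recovered reads, TMM scaling, pseudocounts of 0.5 and 5, no filter or a mean of at least 50, the replicate block, and each library left out. Shares and ratios were compared with two-sided exact permutation tests (scipy 1.17.1), and the 95% intervals of ratios use the pooled SD. The limma fit (R 4.3.3) was tested on simulated data. The members and gene lists were chosen with earlier results of these data known. Named genes are the listed subunits, Shank3, the other subunits tested, up to 3 genes with the smallest P value per pathway list, the nearest 2 genes by value, and markers. Labels do not say how mice relate. The limma P values set the difference between the genotypes against the spread between these mice, moderated over all genes tested. The permutation P values rank that difference among all regroupings of these mice. Some further subunits, and shares taken over all subunits, are not reported here.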

Additional observations from a re-analysis of the deposited data

How the results depend on the processing

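Under each of the 15 other settings of the fit, 0 of the 7 subunits and 0 pathway genes were called, and the lowest adjusted P of a subunit was 0.563 (limma, Gabra3 without TG replicate 2). The number of calls over all genes was 5 without a filter on low values, 7 by DESeq2 and between 1 and 2 with each library left out, against 1. The number of subunits with an unadjusted P value under 0.05 was 3 with the replicate block, against 1 without it, and between 0 (without TG replicate 3 or WT replicate 3) and 4 (without WT replicate 2) with each library left out. With the replicate block, 1024 of the 17605 genes tested had such a P value, against 758 in the main fit. The rise with the block was thus not confined to the subunits. Same-numbered TG and WT libraries had correlations of their deviations between 0.016 and 0.093 over 17605 genes. Those of libraries with different numbers lay between -0.12 and 0.077. Such correlations cannot decide whether the mice were paired. Since the labels name no pairs, the libraries were not taken as paired. With each library left out, the log2 fold change of Gabra4 lay between -0.070 and 0.13 and that of Gabra2 between -0.00098 and 0.070, and that of the other 5 subunits kept its sign but not its size. In Gabra5 it was 0.09 without TG replicate 1 and reached 0.24 when TG replicate 2 was left out. In Gabrb1 it was 0.06 without WT replicate 3 and 0.19 when WT replicate 2 was left out, in Gabrb2 it was 0.07 without WT replicate 1 and 0.20 when WT replicate 2 was left out, and in Gabrd it was -0.15 without TG replicate 2 and -0.03 when TG replicate 1 was left out. Shares free of overlap numbered 1 without length correction and between 0 and 3 with each library left out (3 without TG replicate 2 or WT replicate 2), against 0, and ratios free of overlap between 0 and 2 (2 without TG replicate 2). Groups of 2 against 3 mice are free of overlap by chance more often than groups of 3 against 3. The counts with a library left out are therefore not on the same scale as the main count. The causes were not tested. Shares over all subunits, a further setting, are not reported here.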

Other observations

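Gabre, the epsilon subunit gene beside Gabra3 on the X chromosome, had 22.3, 33.7 and 16.6 normalized read counts in TG replicates 1, 2 and 3 and 21.7, 11.2 and 8.84 in WT replicates 1, 2 and 3. Gabrq, its neighbour on the other side of Gabra3, was likewise highest in TG replicate 2, at 142. Hap1 was at 5493, 5141 and 3641 in the TG mice, against 4454, 4037 and 3508 in the WT mice, and Gabrg1 at 916, 964 and 706 in the TG mice, against 821, 714 and 685 in the WT mice. In these 4 genes TG replicates 1 and 2 lay above each WT mouse, and TG replicate 3 lay within the WT range. The median choroid plexus marker was also above the WT mice in TG replicates 1 and 2, but below them in TG replicate 3. Its log2 ratio to the WT mean was 2.99, 1.06 and -0.25 in TG replicates 1, 2 and 3. In the WT mice it lay between -0.07 and 0.08. It was highest in TG replicate 1, as was Hap1, whereas Gabre, Gabrq and Gabrg1 were highest in TG replicate 2. The part of these markers in the values of the 4 genes was not tested. None of the 4 was called by limma (adjusted P = 0.971 for each), and they were brought together after their values were seen.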
